A study of Mus musculus with 4 samples.

Results

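Replacement histone variants are histones that can be put into chromatin outside DNA replication. In the mouse they include the products of the H3.3 genes *H3f3a* and *H3f3b* and of the H2A.Z genes *H2afz* and *H2afv*, and oocytes have a linker histone of their own, *H1foo*. The 9 genes described here were listed by name, with no threshold on a measured value: *H1foo*, *H1f0*, *H2afz*, *H2afv*, *H2afx*, *H2afy*, *H2afj*, *H3f3a* and *H3f3b*. All 9 were among the 24411 genes listed, and all 9 passed the filter on low counts that left 13549 genes.

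A fertilized mouse egg starts with chromatin built from proteins and mRNAs stored in the oocyte. H3.3 replaces protamine on the paternal genome and is deposited by the HIRA and DAXX-ATRX chaperones, H2A.Z is exchanged into nucleosomes by the SRCAP and EP400 complexes, and H1foo is the linker histone of oocytes and early embryos that is later replaced by somatic linker histones. MYC, paired with MAX, is a transcription factor that binds the E-box CACGTG, and these libraries were made to ask how blocking that pairing changes gene expression around zygotic genome activation.

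Polyadenylated RNA was sequenced from late two-cell embryos of the ICR strain, produced by in vitro fertilization, cultured in KSOM and collected at 36 hours post-insemination (hpi), with 10 embryos pooled in each of 4 libraries. Embryos of 2 libraries received 6 µM 10074-G5, a small molecule that binds MYC and prevents the MYC-MAX dimer, and embryos of the other 2 libraries received DMSO, the solvent, with nothing else differing by the labels. Treatment began at 3 hpi by the sample labels and at 6 hpi by the study's methods. The libraries are described by the study as biological replicates. Each library held 10 two-cell embryos, and levels are relative within a library, so a change in total RNA per embryo would not be seen.

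The summed expected counts lay between 18206584 and 20718690. All 9 two-cell embryo markers were detected. Of 8 cumulus and granulosa markers *Ptx3*, *Amh* and *Foxl2* were at 0 in every library, and the 8 summed to between 0.66 and 6.68 FPKM. Of 6 sperm markers *Prm1* and *Tnp2* were at 0 in every library, and the 6, mostly *Prm2*, summed to 2.7 and 4.44 FPKM in the DMSO libraries and 16.1 and 9.43 in the 10074-G5 libraries. DMSO replicate 1 stood apart from the other libraries. Its summed FPKM was 2424 over the two-cell markers and 1151 over 8 oocyte markers, against 5699 and 2630 in DMSO replicate 2, 7399 and 5964 in 10074-G5 replicate 1, and 7605 and 4773 in 10074-G5 replicate 2. The oocyte sums were mostly *Oosp1* and *Oog1*. Of the 8 oocyte markers only *Zp3* was lower in the 10074-G5 libraries, at 58.95 and 65.13 FPKM against 205.02 and 75.12 in the DMSO libraries. The part that the departure of DMSO replicate 1 has in the results below was not tested.

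Windows of 250 bases before an annotated start were matched in RefSeq for 8 of the 9 genes (build GRCm38.p6). The *H3f3b* window, chr11:116024505-116024754 (minus strand), precedes an internal start and lies within the span of the gene given below. Both strands were searched for the E-box CACGTG, the related motif CAGGTG, the CCAAT box CCAAT and the TATA box TATAAA. The E-box was found in 1 of the 8 windows, that of *H2afz*, and in 6.02% of all 32851 windows. CAGGTG was found in 1, that of *H1foo*, against 17.2% of all windows. CCAAT was found in 6, those of *H1foo*, *H2afz*, *H2afv*, *H2afj*, *H3f3a* and *H3f3b*, against 33.8%, and TATAAA in 1, that of *H3f3b*, against 12.4%. No match overlapped another in these windows, and a match is a description of the sequence and not of binding.

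The windows of 3 genes are shown because *H2afz* carried the E-box and a level among the highest of all genes, *H1foo* is the oocyte form, and *H1f0*, its somatic relative, held none of these motifs. Matches are in capitals, on either strand, and each window is given 5′ to 3′ on the strand of the gene. The *H2afz* window lies at chr3:137864237-137864486 (+), the *H1foo* window at chr6:115944681-115944930 (+) and the *H1f0* window at chr15:79027962-79028211 (+).
H2afz: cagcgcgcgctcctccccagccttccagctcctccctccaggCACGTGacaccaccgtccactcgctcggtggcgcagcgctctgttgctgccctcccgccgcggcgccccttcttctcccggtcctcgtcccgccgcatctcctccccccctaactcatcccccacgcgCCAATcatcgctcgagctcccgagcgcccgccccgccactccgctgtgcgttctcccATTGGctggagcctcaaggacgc
H1foo: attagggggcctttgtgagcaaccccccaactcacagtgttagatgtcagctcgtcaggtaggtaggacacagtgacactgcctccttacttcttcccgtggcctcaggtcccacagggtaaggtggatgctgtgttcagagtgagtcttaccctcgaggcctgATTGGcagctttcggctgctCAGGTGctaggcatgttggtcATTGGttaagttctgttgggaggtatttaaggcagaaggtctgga
H1f0: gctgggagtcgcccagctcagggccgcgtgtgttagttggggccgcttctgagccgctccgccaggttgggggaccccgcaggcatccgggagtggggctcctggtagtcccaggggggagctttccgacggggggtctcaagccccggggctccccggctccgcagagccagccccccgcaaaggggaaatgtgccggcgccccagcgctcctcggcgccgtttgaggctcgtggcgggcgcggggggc
The E-box began 208 bases before the start of *H2afz*, and CAGGTG 66 bases before the start of *H1foo*. The GC content was 71.2% for *H2afz*, 53.2% for *H1foo* and 74.4% for *H1f0*, against a median of 52.4% over all windows.

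*H2afz*, *H3f3a* and *H3f3b* were among the most abundant transcripts of the two-cell embryo, and the 9 genes together made up 1.51% and 1.09% of all FPKM in the DMSO libraries and 0.847% and 0.952% in the 10074-G5 libraries. Of all genes, *H2afz* had FPKM ranks of 9 and 15 in the DMSO libraries and of 26 and 19 in the 10074-G5 libraries. FPKM is scaled to transcript length and to the library, so these levels can be compared between genes. *H2afv* and *H1foo* stood well below these 3 genes, then *H2afj*, *H2afx* and *H1f0*, and *H2afy* was near the limit of detection. Neighbours whose libraries overlapped in level included *H2afv* with *H1foo* and *H2afx* with *H2afj*.

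**Figure D1:**
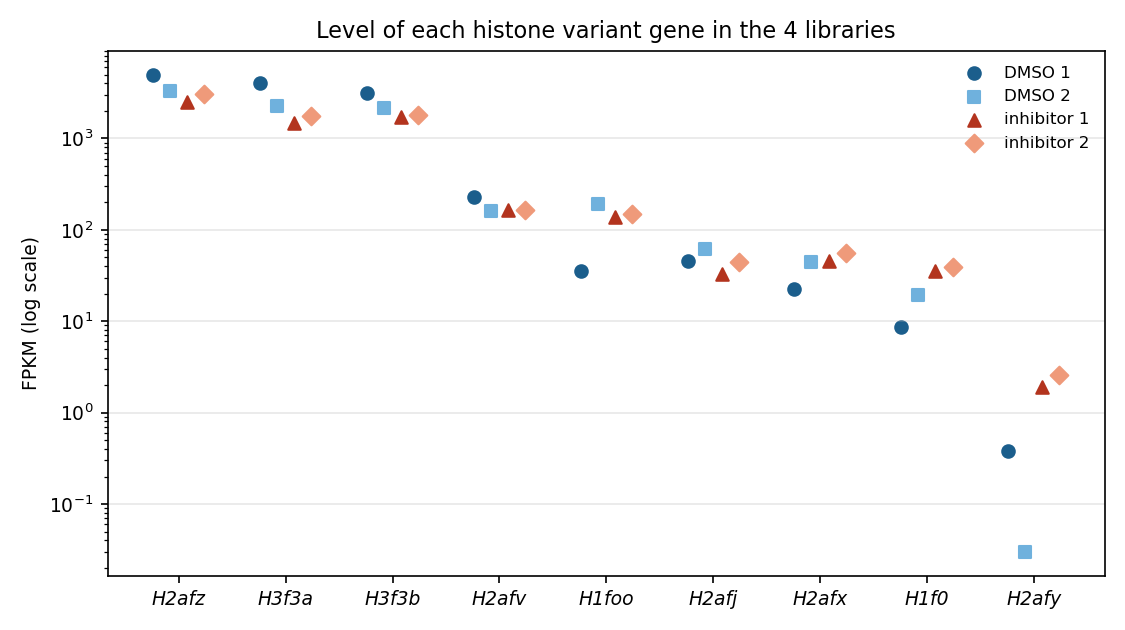
FPKM of each histone variant gene on a log scale, with 1 point for each of the 4 libraries (blue, DMSO; red, 10074-G5). The 3 most abundant genes lay at 1475 FPKM or more in every library, and DMSO replicate 1 lay apart from the other 3 libraries for *H1foo*.

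No member passed the thresholds of the study (|log2FC| over 1 and adjusted p under 0.05) in the edgeR quasi-likelihood test, adjusted by Benjamini-Hochberg, where 0% of the 13549 genes did. DESeq2 with transcript lengths also called 0 of the 9, against 2.81% of 18208 genes. At an unadjusted p under 0.05 edgeR gave 3 of the 9, *H1f0*, *H2afy* and *H3f3a*, against 14.9% of all genes. By CPM, the expected counts scaled to library size with TMM factors, 3 members had no overlap between groups with the 10074-G5 libraries higher (28.9% of all genes), 4 with them lower (28.3% of all genes), and 2 overlapped. The spread between the DMSO libraries exceeded the difference between groups for 6 of 9 members, and the gap between the 10074-G5 libraries was at most 0.40 on the log2 CPM scale. Without DMSO replicate 2, edgeR called 5 members (*H1foo*, *H1f0*, *H2afz*, *H3f3a* and *H3f3b*), in a fit that called 2148 genes higher and 2065 lower. That fit rests on 1 DMSO library, which is assumed to vary like the other group, and it is the one that stands apart. The fit without DMSO replicate 1 likewise rests on 1 DMSO library. Leaving out any other library gave 0 members.

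**Figure D2:**
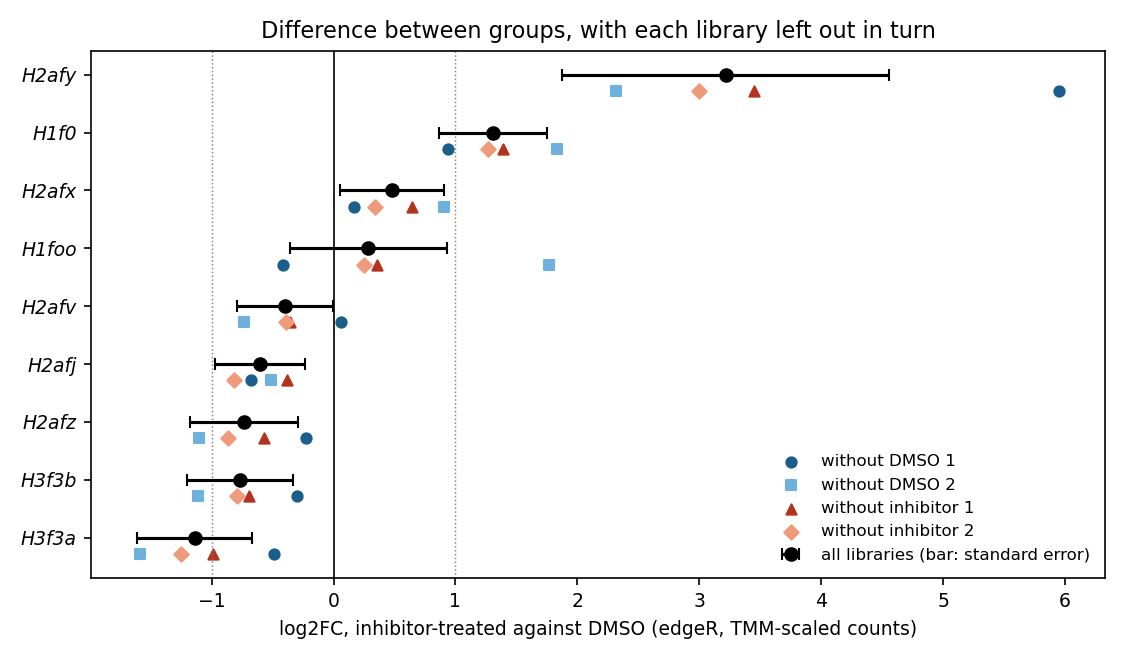
Log2FC of each member, 10074-G5 against DMSO, by edgeR on TMM-scaled counts, with the standard error as a bar and the 4 values obtained with 1 library left out beneath. The sign of *H1foo* and of *H2afv* turned without DMSO replicate 1, and the other 7 members kept theirs in all 4 cases.

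The H3.3 genes encode the same protein from unlike transcripts: their coding sequences of 408 bases differed at 95 positions, with no identical run longer than 23 bases. *H3f3a* (chr1:180802560-180813605, minus strand) had an FPKM of 4029 and 2271 in the DMSO libraries and of 1475 and 1756 in the 10074-G5 libraries. Both 10074-G5 libraries lay below both DMSO libraries, and DMSO replicate 1 was the highest. The mean was 3150 ± 1243 (SD, n = 2) against 1616 ± 198 (SD, n = 2), with a log2FC of -1.14 (SE 0.47, edgeR quasi-likelihood unadjusted p = 0.0433, Benjamini-Hochberg adjusted p = 0.334). Without DMSO replicate 1 the log2FC was -0.49, and without DMSO replicate 2 it was -1.58. Its expected counts were not whole in 3 libraries, so some of its reads were shared with another gene, and how many is not known. Processed copies of *H3f3a*, which were not examined, and *Gm17275*, annotated across it on the other strand, leave its level uncertain. *H3f3a* was the only member with counts that were not whole.

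*H3f3b* (chr11:116021961-116026039, minus strand) had an FPKM of 3150 and 2153 in the DMSO libraries and of 1700 and 1807 in the 10074-G5 libraries. The groups did not overlap, although the DMSO libraries lay farther from each other than DMSO replicate 2 lay from either 10074-G5 library. The log2FC was -0.77 (SE 0.43, edgeR quasi-likelihood adjusted p = 0.413). Leaving out DMSO replicate 1 brought it to -0.30, and leaving out DMSO replicate 2 to -1.11.

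Because a share of 2 genes within 1 library does not depend on the scaling of libraries, *H3f3a* was also expressed as a percentage of the FPKM of *H3f3a* plus *H3f3b*. *H3f3a* supplied 56.1% and 51.3% in the DMSO libraries and 46.5% and 49.3% in the 10074-G5 libraries. By FPKM it was thus above *H3f3b* in both DMSO libraries and below it in both 10074-G5 libraries. By expected counts *H3f3b* was above *H3f3a* in every library, so the order by FPKM rests on the lengths given to the genes. In DMSO replicate 1 the effective length was 796 bases for *H3f3a* and 1713 for *H3f3b*. Because the level of *H3f3a* is also uncertain, as given above, which transcript was the larger is not settled. The mean went from 53.7% ± 3.39 (SD, n = 2) to 47.9% ± 2.0 (SD, n = 2), a difference of -5.85 percentage points (exact two-sided permutation test, p = 0.333, the smallest p that 2 against 2 libraries allow). The difference was -3.46 points without DMSO replicate 1 and -8.25 points without DMSO replicate 2.

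H2A.Z comes from *H2afz* and *H2afv*, whose proteins are nearly the same and whose coding sequences of 384 bases differed at 80 positions. *H2afz* (chr3:137864487-137866922, plus strand) had an FPKM of 4989 and 3268 in the DMSO libraries and of 2521 and 3052 in the 10074-G5 libraries. All 4 values were high, both 10074-G5 libraries lay below both DMSO libraries, and DMSO replicate 2 and 10074-G5 replicate 2 were close. The log2FC was -0.74 (SE 0.44, edgeR quasi-likelihood adjusted p = 0.430), -0.23 without DMSO replicate 1 and -1.11 without DMSO replicate 2. *H2afv* (chr11:6427226-6444511, minus strand) had an FPKM of 230 and 159 in the DMSO libraries and of 165 and 167 in the 10074-G5 libraries. DMSO replicate 2 was the lowest of the 4, so the groups overlapped. The log2FC was -0.40 (SE 0.39, edgeR quasi-likelihood adjusted p = 0.630). It turned to 0.06 without DMSO replicate 1 and was -0.74 without DMSO replicate 2.

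Within the pair, *H2afz* supplied 95.6% and 95.4% of the H2A.Z FPKM in the DMSO libraries and 93.9% and 94.8% in the 10074-G5 libraries. The difference was -1.14 percentage points (exact two-sided permutation test, p = 0.333, again the smallest possible). It was -0.66 points without 10074-G5 replicate 1 and -1.61 points without 10074-G5 replicate 2. *H2afz* was thus the prevailing H2A.Z transcript in every library.

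**Figure D3:**
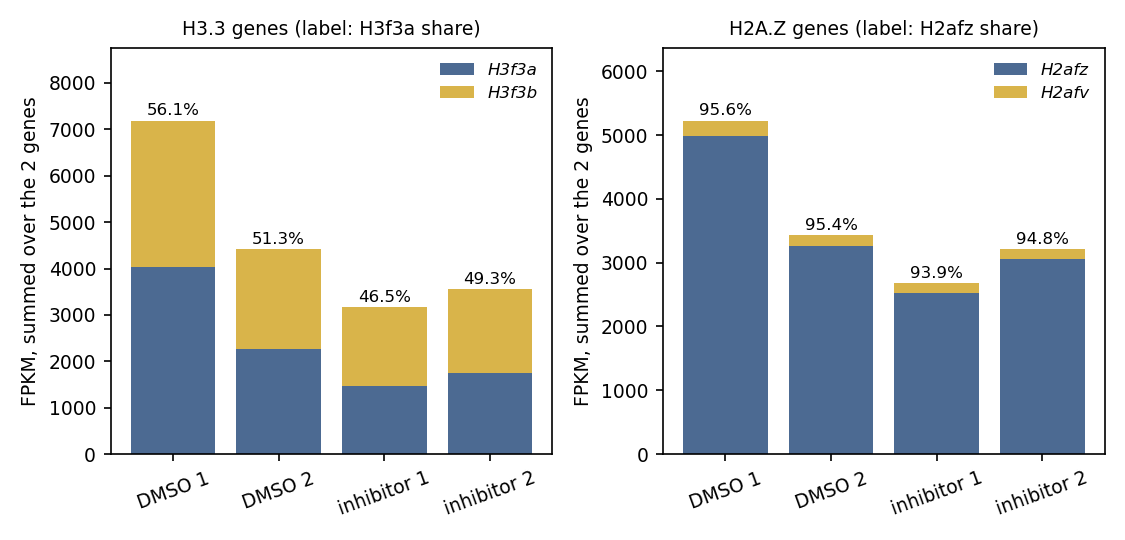
FPKM of the H3.3 genes (left) and the H2A.Z genes (right) in each library as stacked bars from 0, with the percentage supplied by *H3f3a* or *H2afz* above each bar. *H3f3a* made up over 50% of the H3.3 bar in both DMSO libraries and under 50% in both 10074-G5 libraries, and *H2afz* made up over 93% of each H2A.Z bar.

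*H1foo* and *H1f0* are linker histones, which bind where DNA enters and leaves the nucleosome. *H1foo* (chr6:115944931-115950242, plus strand) had an FPKM of 35.2 and 193 in the DMSO libraries and of 139 and 149 in the 10074-G5 libraries. The 2 DMSO libraries enclosed the 10074-G5 libraries, DMSO replicate 1 being the lowest and DMSO replicate 2 the highest. The log2FC was 0.28 (SE 0.64, edgeR quasi-likelihood adjusted p = 0.849), and leaving out a library took it from -0.42 (without DMSO replicate 1) to 1.77 (without DMSO replicate 2). The gap between the DMSO libraries was -2.20 on the log2 CPM scale, replicate 1 minus replicate 2.

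*H1f0* (chr15:79028212-79030504, plus strand), the linker histone of differentiated and resting cells, had an FPKM of 8.68 and 19.4 in the DMSO libraries and of 35.7 and 38.8 in the 10074-G5 libraries. Both 10074-G5 libraries lay above both DMSO libraries. The log2FC was 1.31 (SE 0.44, edgeR quasi-likelihood unadjusted p = 0.0197, Benjamini-Hochberg adjusted p = 0.333). DESeq2 with transcript lengths gave an adjusted p of 0.0704, and over the alternatives that kept every library the adjusted p ran from 0.0680 to 0.411. The log2FC was 0.94 without DMSO replicate 1, and between 0.94 and 1.83 over the 4 libraries left out. The annotated antisense gene *Gm49544* overlaps *H1f0*, and no strand setting is given in the sources used here, so reads of the 2 genes cannot be told apart. *H1foo* made up 80.2% and 90.8% of the FPKM of both linker histones in the DMSO libraries, and 79.5% and 79.4% in the 10074-G5 libraries. The higher oocyte marker sums of the 10074-G5 libraries, mostly *Oosp1* and *Oog1* and with *Zp3* lower, stand beside the *H1f0* values. Their part in the difference was not tested.

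*H2afx* encodes H2A.X, which is phosphorylated around DNA breaks. *H2afx* (chr9:44334715-44336077, plus strand) had an FPKM of 22.3 and 44.9 in the DMSO libraries and of 45.2 and 55.4 in the 10074-G5 libraries. The groups did not overlap, but DMSO replicate 2 and 10074-G5 replicate 1 were nearly equal. The log2FC was 0.48 (SE 0.43, edgeR quasi-likelihood adjusted p = 0.587), 0.17 without DMSO replicate 1 and 0.91 without DMSO replicate 2.

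*H2afj* (chr6:136808248-136810074, plus strand) encodes H2A.J, a variant that differs from canonical H2A mainly at its end. Its FPKM was 46.1 and 62.3 in the DMSO libraries and 33.1 and 44.7 in the 10074-G5 libraries. DMSO replicate 1 was only just above 10074-G5 replicate 2, and here DMSO replicate 2 was the higher DMSO library, unlike in the other genes with a negative log2FC. The log2FC was -0.61 (SE 0.37, edgeR quasi-likelihood adjusted p = 0.435), and it lay between -0.82 and -0.38 with a library left out. *H2afj* exceeded *H2afx* in FPKM in both DMSO libraries and was below it in both 10074-G5 libraries.

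*H2afy* (chr13:56073622-56135626, minus strand) encodes macroH2A1, a large variant linked to silent chromatin. It was close to absent, with an FPKM of 0.38 and 0.03 in the DMSO libraries and of 1.92 and 2.58 in the 10074-G5 libraries. These values rest on 12 and 1 expected counts in the DMSO libraries and 67 and 86 in the 10074-G5 libraries. The ratio of the summed counts, 153 against 13 and scaled to the libraries, was 9.85 (95% exact interval 5.59 to 18.9, counting error only, with PCR copies counted as reads). The log2FC was 3.22 (SE 1.34, edgeR quasi-likelihood unadjusted p = 0.0451, Benjamini-Hochberg adjusted p = 0.334), and it ranged from 2.31 to 5.95 with a library left out. The gene is listed with 4 transcripts, and an annotated antisense gene, *Gm47071*, overlaps it, with the same limit on strand as for *H1f0*.

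Genes that load, exchange or read the variants were taken from 4 lists and other variant histone genes from a further list. These held 65 listed genes in all, of which 58 passed the filter. The lists were chosen with earlier results of these data known, so a list share set beside that of all genes is a description only. edgeR called 0 of the 58, and 0% of all genes. DESeq2 on the same genes called 3 (*Actr6*, *Ino80* and *Set*, all lower), and over all 13549 genes it called 95 higher and 471 lower. DESeq2 with transcript lengths called 2 (*Actr6* and *Ino80*, both lower and both H2A.Z exchange factors), against 2.81% of all 18208 genes. At an unadjusted p under 0.05, 1 of the 58 was higher and 10 were lower, 19.0% against 14.9% of all genes. Over all 13549 genes, 639 were higher and 1374 lower at that p, and 6973 had a positive and 6576 a negative log2FC. The median log2FC was -0.54 over these genes, -0.40 over the 9 variants and 0.04 over all genes, and without DMSO replicate 1 it was -0.31, -0.23 and 0.03. Without DMSO replicate 2 the edgeR log2FC was -2.67 for *Actr6* and -1.94 for *Ino80*.

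Of the 16 H2A.Z exchange factors, 3 had a positive and 13 a negative log2FC, with 5 at an unadjusted p under 0.05, all lower. These were 31.2% of the list, against 14.9% of all genes, where 639 were higher and 1374 lower. Their median log2FC was -0.81, and -0.43 without DMSO replicate 1. *Actr6*, an actin-related subunit of SRCAP, had an FPKM of 236 and 115 in the DMSO libraries and of 41.9 and 47.5 in the 10074-G5 libraries. It was lower by 2.18 on the log2 scale in DESeq2 with transcript lengths (adjusted p = 0.00309, edgeR quasi-likelihood adjusted p = 0.333). Over the alternatives that kept every library the adjusted p ran from 0.000643 to 0.411. Its edgeR log2FC was -2.16, and -1.36 without DMSO replicate 1. *Ino80*, the ATPase of the INO80 remodeller, had an FPKM of 9.14 and 5.93 in the DMSO libraries and of 2.50 and 3.25 in the 10074-G5 libraries. DESeq2 with transcript lengths gave it a log2FC of -1.57 (adjusted p = 0.0450). Over the alternatives that kept every library its adjusted p ran from 0.0436 (DESeq2 on the same genes) to 0.411 (edgeR with library totals). The edgeR log2FC of *Ino80* was -1.05 without DMSO replicate 1. *Vps72*, which holds H2A.Z within SRCAP and EP400, had an edgeR log2FC of -1.10 (-0.59 without DMSO replicate 1, -1.48 without DMSO replicate 2). *Brd8*, an EP400 subunit, had one of -0.98 (-0.66 without DMSO replicate 1, -1.23 without DMSO replicate 2). Neither was called with every library kept.

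Of the 9 H3.3 chaperones, 4 had a positive and 5 a negative log2FC and none had an unadjusted p under 0.05. The most abundant were *Dek*, an H3.3 chaperone (log2FC 0.08), and *Asf1b*, which passes H3-H4 to other chaperones (log2FC -0.58). Of the 17 general histone chaperones, 4 had a positive and 13 a negative log2FC, with 1 higher and 4 lower at an unadjusted p under 0.05. These were 29.4% of the list, against 14.9% of all genes, where 639 were higher and 1374 lower. Their median log2FC was -0.61, and -0.35 without DMSO replicate 1. *Npm2*, the oocyte nucleoplasmin, was the 1 higher, with an FPKM of 71.2 and 168 in the DMSO libraries and of 305 and 242 in the 10074-G5 libraries. *Npm1*, its widely expressed relative, was on the other side, with an FPKM of 3160 and 1686 in the DMSO libraries and of 1068 and 1230 in the 10074-G5 libraries. *Spty2d1*, an H3-H4 chaperone, had a log2FC of -1.57 and *Set*, a chaperone of the NAP family, one of -1.43. Without DMSO replicate 1 the log2FC was -0.81 for *Spty2d1*, -0.56 for *Set*, -0.56 for *Npm1* and 0.71 for *Npm2*. Without DMSO replicate 2 it was -2.07, -1.97, -1.75 and 1.68 in the same order. Of the 12 genes that phosphorylate or read H2A.X, 4 had a positive and 8 a negative log2FC. Only the kinase gene *Prkdc* had an unadjusted p under 0.05 (log2FC -0.96), 8.33% of the list against 14.9% of all genes.

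Of 11 other variant histone genes, 7 stayed under 1 FPKM in every library and did not pass the filter. *Cenpa*, the centromeric H3, was the abundant one, with an FPKM of 801 and 381 in the DMSO libraries and of 250 and 357 in the 10074-G5 libraries (log2FC -1.15, edgeR quasi-likelihood adjusted p = 0.343). Leaving out DMSO replicate 1 brought the log2FC of *Cenpa* to -0.33, and leaving out DMSO replicate 2 to -1.67. *Hist1h2aa*, an H2A variant gene, was listed at 0 and at 3.93 FPKM in the DMSO libraries and at 16.1 and 3.59 FPKM in the 10074-G5 libraries, so its groups overlapped.

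**Figure D4:**
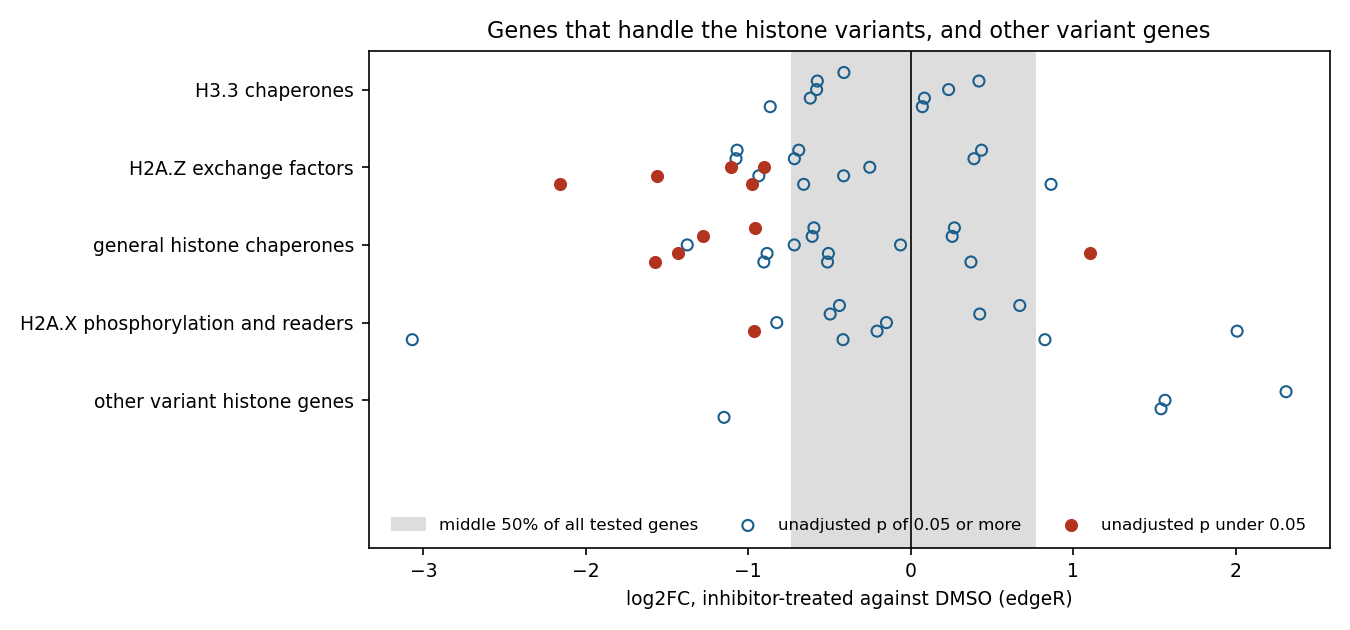
Log2FC of the tested genes of the 5 lists, 1 point for each gene, 10074-G5 against DMSO by edgeR, with the middle 50% of all tested genes in grey. Filled points have an unadjusted p under 0.05, and among H2A.Z exchange factors all 5 of these are negative. Over all tested genes, 639 were higher and 1374 lower at that p.

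In the RT-qPCR of the study, *Gapdh* was the control for oocytes and untreated embryos over stages, and *H2afz* that for the *Myc* antisense knockdown. The study describes no RT-qPCR of embryos treated with 10074-G5, so the ratio below does not bear on its RT-qPCR results. The log2 ratio of *H2afz* to *Gapdh* FPKM was 6.29 and 5.25 in the DMSO libraries and 3.94 and 4.49 in the 10074-G5 libraries. The groups did not overlap, and the difference was -1.56 (exact two-sided permutation test, p = 0.333, the smallest possible). It ranged from -2.08 to -1.03 with a library left out. *Gapdh* had an FPKM of 63.7 and 85.9 in the DMSO libraries and of 165 and 135 in the 10074-G5 libraries (log2FC 0.89, edgeR quasi-likelihood unadjusted p = 0.0383, adjusted p = 0.333). A ratio shows unequal change and not which gene was constant.

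Within these libraries the choice of reference bears on *Myc*, whose FPKM was 7.59 and 7.81 in the DMSO libraries and 2.73 and 2.74 in the 10074-G5 libraries. The inhibitor acts on the MYC protein, so this transcript is no check of the labels. Against *H2afz* the log2 level of *Myc* differed by -0.95 between groups (-1.28 without DMSO replicate 1, -0.63 without DMSO replicate 2). Against *Gapdh* the log2 level of *Myc* differed by -2.51 (from -2.70 to -2.31 with a library left out). Beside *H2afz* at -0.74, the edgeR log2FC of 10 common reference genes ran from -1.47 (*Hprt*) to 1.13 (*Ywhaz*), with *Ppia* at -1.37, *Tbp* at -0.88, *Sdha* at 0.72, *Gusb* at 0.77 and *Gapdh* at 0.89. Under TMM factors only *Actb* (0.15), *Pgk1* (0.21) and *B2m* (0.03) lay within 0.5 of 0. Without DMSO replicate 1 the log2FC was 0.62 for *Actb*, 0.09 for *Sdha* and 0.35 for *Gusb*, while *Hprt* was at -0.81, *Ppia* at -0.71, *Tbp* at -0.54 and *Ywhaz* at 0.56. DESeq2 with transcript lengths called *Hprt* and *Ppia* lower.

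**Figure D5:**
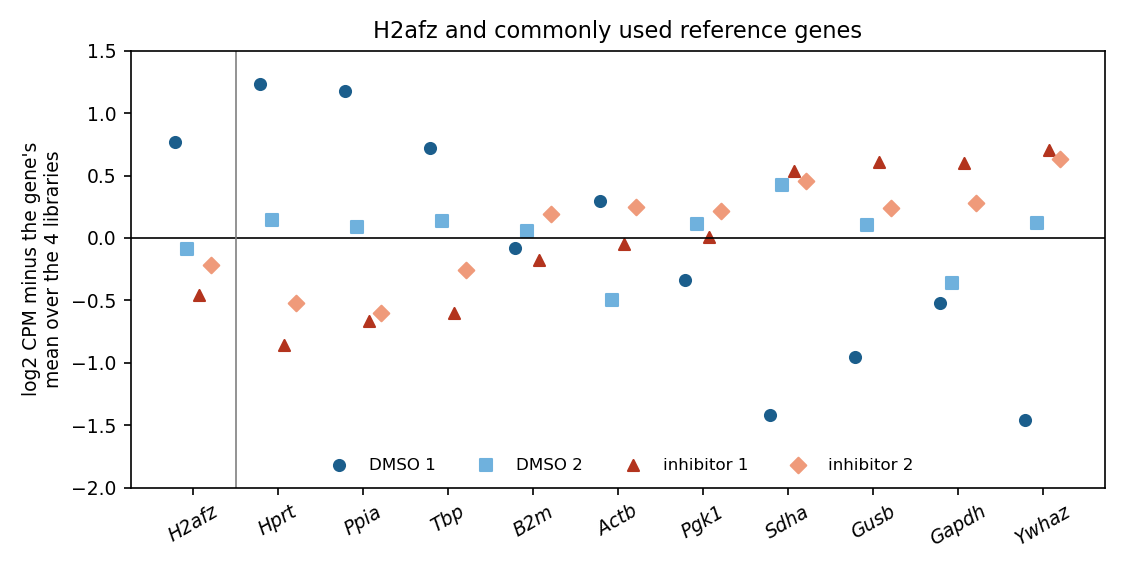
Log2 CPM of *H2afz* and of 10 reference genes in each library, minus the mean of that gene over the 4 libraries. *H2afz* was highest in DMSO replicate 1, as were *Hprt*, *Ppia*, *Tbp* and *Actb*, and *Sdha*, *Gusb*, *Ywhaz*, *Gapdh* and *Pgk1* were lowest there.

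The genes whose profile over the 4 libraries was nearest to a variant were sought among 5155 genes (mean FPKM of 10 or more), by the Euclidean distance of centred log2 CPM. For *H2afz* these were *Vps28* (distance 0.062), *Fbxo36* (0.067) and *Dnajb6* (0.081), and *H3f3b* had rank 40 (0.14). For *H1foo* they were *Pmaip1* (0.13), *Fsd1* (0.25) and *Rraga* (0.27), while *H1f0* had rank 1023 (1.16). *Pmaip1* had an FPKM of 3.65 and 19.3 in the DMSO libraries and of 13.3 and 13.9 in the 10074-G5 libraries, so it shared the low value of *H1foo* in DMSO replicate 1. With 4 libraries that share their scaling, these distances are a description only.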

How the data were processed

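Late two-cell embryos were measured by RNA-seq in 2 DMSO and 2 10074-G5 libraries, grouped by their labels. The authors prepared libraries with a SMART-Seq v4 PLUS kit, aligned reads to mm10 with STAR (version 2.7.10 in the submitters' processing notes), kept uniquely mapped reads and ran RSEM (version 1.3.3). The expected counts deposited by the authors are RSEM's estimates per gene, not normalized, and from 3.97% to 4.49% of values in a library were not whole. The FPKM and TPM deposited by the authors are scaled to effective transcript length and library. The effective lengths, also deposited, served as DESeq2 offsets. PCR copies were counted as reads, and intervals cover counting error only. The p-values of edgeR, DESeq2 and limma set a difference between groups against the spread between these libraries, estimated with information from all genes.

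Expected counts were rounded. filterByExpr (minimum count 10, minimum total 15) left 13549 genes, TMM factors were 0.873, 1.04, 1.04 and 1.06 (DMSO replicates 1 and 2, then 10074-G5 replicates 1 and 2), and edgeR's quasi-likelihood test (edgeR 4.0.16, R 4.3.3, robust) was adjusted by Benjamini-Hochberg over all tested genes, with a common biological coefficient of variation of 0.557. A call needed an adjusted p under 0.05 and |log2FC| over 1. Alternatives comprised DESeq2 1.42.0, either on those genes or on 18208 genes with lengths, limma 3.58.1 on log2(FPKM + 1) and log2(FPKM + 0.1) for a mean FPKM of at least 1, other scalings and filters, the replicate number as a block, and each library left out. Scripts were tested on simulated data. An adjusted p that DESeq2 left empty, as for *H2afy*, stayed empty.

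All 9 members were named. Of each list at most 4 genes with the smallest edgeR p under 0.05 were named, or the 2 most abundant where none passed, besides the reference genes, the 3 nearest genes of *H1foo* and *H2afz*, and *Myc*. Members and lists were chosen with earlier results of these data known. Upstream windows and loci are RefSeq's (GRCm38.p6, matched through symbols), and coding sequences are GENCODE M21's. Several upstream windows overlap exons of other annotated transcripts. Some reference genes of the list are not reported here.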

Additional observations from a re-analysis of the deposited data

How the results depend on the processing

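No setting other than leaving out DMSO replicate 2 called a member, and over the libraries left out the count ran from 0 to 5. Of the 58 genes that handle the variants or encode other variants, DESeq2 on the same genes called 3, DESeq2 with transcript lengths 2, the fit with no filter on low counts called 1 (*Actr6*), and leaving out a library gave from 0 to 19. Across the libraries left out, the log2FC of *H1foo* ran from -0.42 to 1.77, that of *H2afv* from -0.74 to 0.060 and that of *Dek* from -0.080 to 0.28, the sign turning without DMSO replicate 1 in each case, and the cause was not tested. The signs of the 9 members and 10 reference genes were the same under TMM factors, DESeq2's size factors and library totals, the last of which moved the median log2FC of all genes from 0.04 to 0.17.

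Over all genes edgeR called 0, and 2013 had an unadjusted p under 0.05. DESeq2 on the same genes called 95 higher and 471 lower, DESeq2 with transcript lengths 83 and 429, edgeR with no filter 165 and 479, and edgeR with the replicate block 12 and 32. The block changed no call of a member. The replicate numbers are balanced over the groups, so a block cannot change a difference of group means. The differences in *H3f3a* share (-5.85 points), *H2afz* share (-1.14 points) and *H2afz* to *Gapdh* ratio (-1.56) are therefore not checked by it. Same-numbered libraries did not deviate together (correlation -0.0343), so the numbers were not taken as pairs. With 2 libraries in a group, the exact tests could not reach a p under 0.333.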
